A study of Mus musculus with 8 samples.

Results

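Cycling macrophages that carried transcripts of the G2 phase and of mitosis were picked out of single-cell RNA libraries of cultured mouse bone marrow, and 698 such cells were found among 5218 eligible cells (13.4%). The cells were chosen by measured counts: at least 3 of 10 genes had to be detected with 1 UMI or more, namely Top2a, Mki67, Cenpf, Prc1, Nusap1, Ccna2, Knl1, Cenpe, Kif11 and Aspm. These 10 are called the mitotic genes below, and a UMI is a tagged RNA molecule counted once. An eligible cell had at least 300 detected genes, at least 1000 UMIs and at most 20% of its UMIs from mitochondrially encoded genes. The tables listed 40000 barcodes in all. The comparison cells were 2371 eligible cells of the same libraries with none of the 10 genes detected, each within the UMI range of the mitotic cells of its library. Because the 10 genes chose the cells, their levels in them are given as a description with no test.

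Hind limb bone marrow was taken from C57Bl/6J mice (10 weeks, male by their labels) and grown with the macrophage growth factor M-CSF for 3 days. The 4 control libraries then had no further agent, and the 4 CYR61 libraries had 4 µg/mL of CYR61 for 24 h. CYR61, the product of Ccn1, is a secreted protein of the extracellular matrix with integrins as receptors. Single cells were captured on the HIVE microwell platform. Nothing in the labels ties a replicate to its own animal or culture, so the p-values below measure the spread between libraries, which may be technical.

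M-CSF acts through its receptor tyrosine kinase and drives both the survival and the division of macrophage precursors. A dividing cell copies its DNA in S phase and then builds the proteins of mitosis in G2. The genes of these phases are switched on through different promoter elements. E2F factors act on S-phase genes at the transition into S phase. The MuvB complex, joined by B-Myb and FOXM1, acts on the later G2 and M genes through the element named CHR (cell cycle genes homology region), often beside CCAAT boxes bound by NF-Y. The mitotic proteins are then destroyed as the cell divides, while their RNA falls in the next G1.

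Promoters of mitotic genes and of S-phase genes are printed here because they show these elements side by side. The first set holds 3 of the genes that chose the cells (Top2a, Cenpf and Aspm) and 2 that did not (Ccnb2, which encodes cyclin B2, and Kif23, a kinesin of the cytokinetic midzone). Capitals mark the CHR forms TTTGAA and TTCGAA and the CCAAT box, on either strand, so that TTCAAA and ATTGG are the same elements read from the other strand. Sequences are from RefSeq on GRCm38.p6, each 5′ to 3′ on the strand of the gene.
Top2a, chr11:99024190-99024429, minus strand: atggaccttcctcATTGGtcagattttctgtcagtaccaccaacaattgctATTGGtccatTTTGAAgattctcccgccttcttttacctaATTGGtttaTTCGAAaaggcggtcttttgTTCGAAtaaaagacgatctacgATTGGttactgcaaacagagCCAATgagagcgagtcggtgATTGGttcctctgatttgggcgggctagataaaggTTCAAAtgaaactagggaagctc
Cenpf, chr1:189688067-189688236, minus strand: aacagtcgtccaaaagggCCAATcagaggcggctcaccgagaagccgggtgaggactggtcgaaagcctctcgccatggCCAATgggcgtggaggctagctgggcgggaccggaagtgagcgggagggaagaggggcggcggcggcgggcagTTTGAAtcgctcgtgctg
Aspm, chr1:139454653-139454792, plus strand: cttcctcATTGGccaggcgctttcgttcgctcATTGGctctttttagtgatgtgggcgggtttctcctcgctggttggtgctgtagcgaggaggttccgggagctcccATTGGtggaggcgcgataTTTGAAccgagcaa
Ccnb2, chr9:70421535-70421654, minus strand: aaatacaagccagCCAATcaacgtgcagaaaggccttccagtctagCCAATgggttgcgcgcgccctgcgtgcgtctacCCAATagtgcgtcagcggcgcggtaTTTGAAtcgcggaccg
Kif23, chr9:61946780-61946849, minus strand: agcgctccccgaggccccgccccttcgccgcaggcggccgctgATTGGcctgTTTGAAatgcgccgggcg
The second set holds Mcm6, a subunit of the replicative helicase, and Hells, a chromatin remodeller of replicating cells. Capitals mark the E2F form TTGGCGC, its variant TTCGCGC and its other variant TTCCCGC, each on either strand. In Mcm6 the first form runs into the reverse complement of TTCGCGC.
Mcm6, chr1:128359706-128359825, minus strand: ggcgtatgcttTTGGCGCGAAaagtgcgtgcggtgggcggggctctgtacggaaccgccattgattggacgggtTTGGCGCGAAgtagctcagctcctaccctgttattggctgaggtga
Hells, chr19:38930910-38930989, plus strand: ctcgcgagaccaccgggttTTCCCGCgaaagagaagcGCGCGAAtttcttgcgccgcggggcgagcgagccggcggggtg

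Of the 10 mitotic genes, 9 were in the RefSeq table, all but Ccna2. A CHR form lay in the 300-base promoter of 7 of them (77.8%), against 21.7% of all 27025 genes in the table. The genes without one were Cenpe, a kinetochore motor, and Nusap1, a spindle microtubule protein. In a list of other G2 and M genes, 47 of 66 matched genes (71.2%) held a CHR form and 14 (21.2%) held an E2F form. In an S-phase list the order was turned around, with a CHR form in 14 of 62 (22.6%) and an E2F form in 39 (62.9%). The CCAAT box was in 77.8%, 71.2% and 59.7% of these 3 sets and in 41.1% of all genes. In a list of macrophage markers, 3 of 19 matched genes held a CHR form and 2 held an E2F form, and over all genes an E2F form was in 9.20%. A match of letters is a description and not a shown binding site, and the lists were chosen for their known roles.

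**Figure D1:**
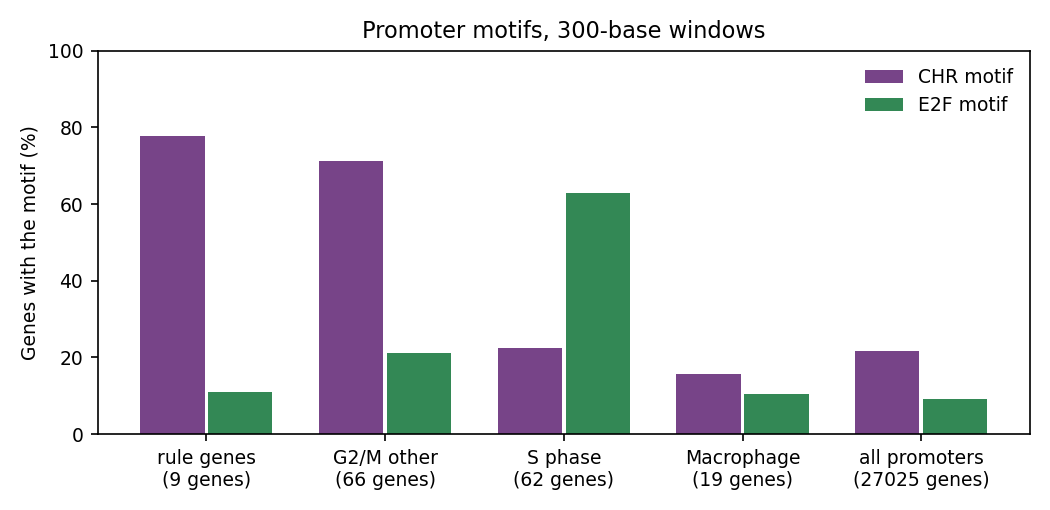
Share of genes (%) with a CHR form or an E2F form in the RefSeq promoter window of 300 bases, for the mitotic genes used to choose cells (rule genes), the other lists and all promoters. Bars show percentages, with the number of matched genes under each. CHR forms lie in 77.8% and 71.2% of the 2 mitotic sets, and E2F forms in 62.9% of the S-phase list.

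Before the results, 3 facts of the libraries bear on them. Where tables with the same date in their names listed the same barcode, it was used only in the table with its highest UMI total, and eligible cells went from 7973 to 5218. Of the 698 mitotic cells, 528 (75.6%) had barcodes that were also listed in another table of the date, and 8 in a table of the other date. Barcodes in another table of the date were less common in comparison cells, at 1057 of 2371 (44.6%), and in all eligible cells, at 2699 (51.7%). The part of this difference in the contrast of the classes was not tested. Control 2 lost most by this rule, from 197 mitotic of 1474 eligible cells to 51 of 166. The libraries also split by sex-linked RNA, against labels that call all animals male: Xist stood between 1173 and 1271 CPM (UMI counts scaled so that all genes of a library and class sum to the same total) in control 2, control 3, CYR61 1 and CYR61 2, and at most at 1.31 CPM in the others, which carried 333 to 413 CPM of Y-linked RNA. Both kinds were held by 6 mitotic cells (0.860%), against 1 comparison cell (0.0422%) and 18 of all eligible cells (0.345%). Eligible cells per library ranged from 149 to 2488, and mitotic cells from 8 to 424.

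The label was checked against markers. All 698 mitotic cells carried at least 3 of 29 macrophage markers, as did all 5218 eligible cells, so free macrophage RNA cannot be told apart from a cell's own by this measure. Of the mitotic cells, 674 (96.6%) had at least 3 S-phase genes and 149 (21.3%) at least 3 monocyte markers. The comparison cells, which were shallower, had these in 61.6% and 8.14%, and all eligible cells in 70.8% and 11.2%. Dendritic cell markers reached 3 in 93 (13.3%), and in 132 (5.57%) of the comparison cells, and myeloid progenitor markers in 6 and 4 cells. Markers of B cells, T and NK cells, mast cells and stroma reached 3 in none of the mitotic cells. Genes of a neutrophil lineage list, called granule genes below, reached 3 in 209 (29.9%), and in 429 (18.1%) of the comparison cells. Besides genes of granule proteins the list holds others, among them the factor Cebpe and the receptors Cxcr2 and Csf3r. Neutrophil precursors divide in marrow too. Among 76 eligible cells with at least 8 of 16 granule genes, 23 (30.3%, 95% Wilson interval 21.1 to 41.3%) counted as mitotic. Their median depth was 5368.5 UMIs. After each cell was thinned at random to an equal depth, as described below, 12 of the 76 still passed (15.8%, 95% Wilson interval 9.27 to 25.6%). The thinned share of all eligible cells was 5.40% (95% Wilson interval 4.82 to 6.05%). Among 14 eligible cells with at least 3 megakaryocyte and platelet genes, 1 counted as mitotic and 0 passed after thinning, at a median of 6006 UMIs. The part that cells with granule, progenitor or dendritic genes play in the values below was not tested, apart from the fit without granule or progenitor cells given with the CYR61 effect.

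Top2a, the topoisomerase that untangles sister chromatids (chr11:98992943-99024189 on mm10, GENCODE vM21), was detected in 580 mitotic cells (83.1%). It measured 376, 461, 264 and 479 CPM in the mitotic cells of control libraries 1 to 4. In CYR61 libraries 1 to 4 it measured 921, 759, 119 and 504 CPM. CYR61 3 was the lowest library, and it held 8 mitotic cells with 1 cell giving 50.2% of their UMIs. Mki67 (chr7:135689784-135716361), which encodes a protein that coats mitotic chromosomes, was detected in 559 cells (80.1%). Its level was 597, 598, 322 and 479 CPM in the control libraries and 767, 744, 185 and 492 CPM in the CYR61 libraries. Control 3, with 12 mitotic cells, and CYR61 3 were again the lowest of their groups.

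The other 8 genes were found in fewer of the cells. Cenpe was detected in 443 (63.5%), and Prc1, which bundles midzone microtubules, in 386 (55.3%). Ccna2, the cyclin of S and G2 phases, was detected in 354 (50.7%), and Kif11, the motor that pushes the spindle poles apart, in 350 (50.1%). Cenpf, a kinetochore protein of G2 and M, was found in 317 (45.4%), Nusap1 and the kinetochore scaffold Knl1 in 300 each (43.0%), and the spindle pole protein Aspm in 197 (28.2%). Where a gene was detected, the median was 3 UMIs for Top2a and Mki67 and 2 UMIs for each of the others. The highest single count was 108 UMIs of Top2a. Free RNA can give such low counts. In cells with 3 or more granule genes, Top2a was detected in 26.5%, against 21.9% of all eligible cells, and Mki67 in 32.6% against 23.7%, at median depths of 7780 and 2775.5 UMIs.

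The number of mitotic genes a cell showed ran from the threshold to the full set. Of the 698 cells, 222 held exactly 3, 125 held 4, and 87 held all 10. Just outside the threshold were 571 cells with 2 genes. The cells with 2 and with 3 genes were alike in depth, at medians of 5177 and 5387.5 UMIs, and close in the summed level of 83 other G2 and M genes, at 1744 and 2103 CPM. That level was 1461 CPM in cells with none. It was 5553 CPM with 6 genes and 17990 CPM with 10, at a median of 14309 UMIs.

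The S-phase list of 80 genes took another course. Its summed level was 2124 CPM in cells with 2 mitotic genes, 2855 with 3, and 5701 with 6. From 8 to 10 genes it lay between 8051 and 8357 CPM, while the other G2 and M genes went from 8055 to 17990 CPM. Mitotic cells with 8 to 10 genes numbered 16 of 103 in the control libraries (15.5%) and 149 of 595 in the CYR61 libraries (25.0%). The library shares overlapped, from 6.25% to 25.0% in the control libraries and from 0% to 33.3% in the CYR61 libraries.

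**Figure D2:**
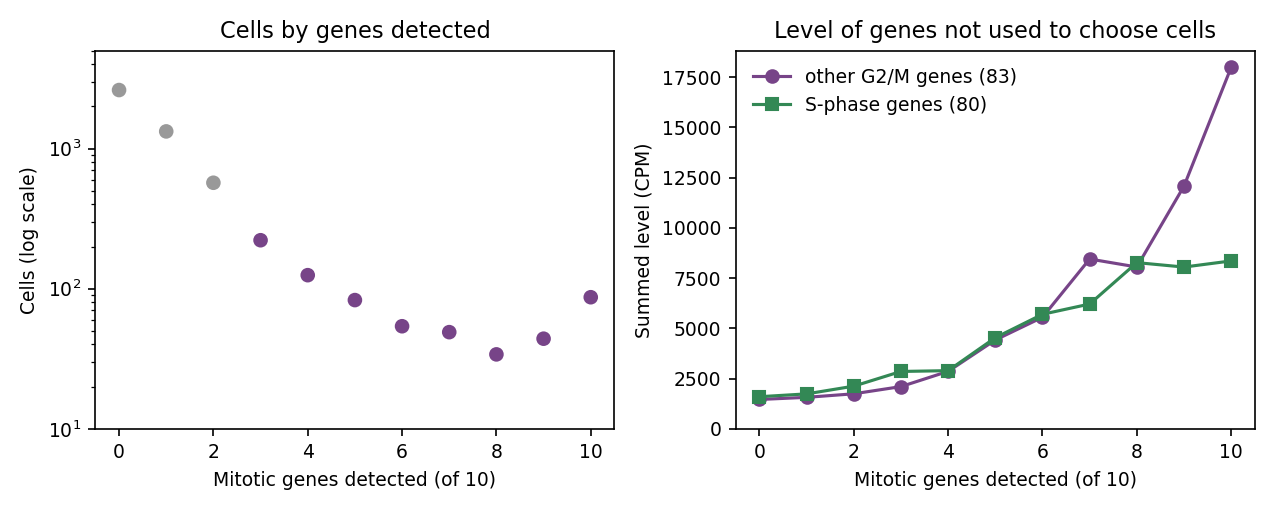
Left, number of eligible cells (log scale) by how many of the 10 mitotic genes were detected, with cells below the threshold in grey and mitotic cells in purple. Right, summed level in CPM of 83 other G2/M genes and 80 S-phase genes, neither used to choose cells. The S-phase level lies between 8051 and 8357 CPM from 8 genes on, while the G2/M level reaches 17990 CPM.

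Mitotic cells were deeper than the comparison cells, with medians of 6531.5 and 2271 UMIs and of 2755 and 1139 genes, and their mitochondrial share was lower, at a median of 7.40% against 10.4%. In every library the summed level of the 83 other G2 and M genes was higher in mitotic cells. In control libraries 1 to 4 it was 4949, 5887, 4251 and 5486 CPM, against 1677, 1522, 855 and 1434 CPM in the comparison cells. In CYR61 libraries 1 to 4 it was 8817, 7398, 4092 and 5638 CPM, against 1289, 1507, 1611 and 1527 CPM. The gap was smallest in CYR61 3 and largest in CYR61 1. The S-phase list was also higher in all 8 libraries, from 2345 to 6760 CPM against 1361 to 2143 CPM.

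Gene by gene, the log2 ratio of CPM in mitotic over comparison cells was taken within each library with 5 CPM added to both. Over 7278 genes that reached a mean of 20 CPM in either class, 6.39% were higher in all 8 libraries and 0.660% lower in all 8, and the median ratio was 0.15. A gene could pass that filter on its mitotic level alone, and the choice of cells used this contrast, so the counts are descriptions. Of 65 measured genes of the other G2 and M list, 35 were higher in all 8 libraries, with a median ratio of 2.36. Of 62 in the S-phase list, 29 were, with a median of 1.46.

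Kinesins, the motors of spindle and midzone, had a median ratio of 3.01 over 6 measured genes. Kif15, a motor that keeps the spindle bipolar, measured 86.4, 108, 99.7 and 147 CPM in control libraries 1 to 4. In CYR61 libraries 1 to 4 it measured 187, 172, 86.8 and 174 CPM. It averaged 12.2 ± 16.3 CPM in comparison cells (SD, n = 8), and its ratio had a median of 3.68 and ran from 1.01 to 4.39. Its smallest gap was in control 2, where the comparison cells, 71 in all, gave 51.0 CPM. Kif23 averaged 112 ± 48.8 CPM against 15.8 ± 21.5 CPM (SD, n = 8), with a median ratio of 3.21.

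Genes of the kinetochore and of the checkpoint that guards it stood beside the kinesins. Bub1, a checkpoint kinase, measured 58.3, 98.6, 29.3 and 81.1 CPM in control libraries 1 to 4. Its levels in CYR61 libraries 1 to 4 were 113, 87.5, 21.7 and 106 CPM. The comparison cells held at most 10.8 CPM in any library, below every value in mitotic cells. Nuf2, which ties the kinetochore to microtubules, averaged 66.1 ± 25.1 CPM against 2.51 ± 2.44 CPM (SD, n = 8). Sgo2a, a protector of centromere cohesion, averaged 87.7 ± 32.6 CPM against 3.76 ± 2.75 CPM (SD, n = 8).

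Several genes with the largest ratios act in spindle assembly. Hmmr had a median ratio of 3.36. Tpx2, which activates Aurora A, averaged 127 ± 87.3 CPM against 7.29 ± 6.90 CPM (SD, n = 8). Ckap2l, Knstrn and Prr11 had median ratios of 3.29, 3.01 and 3.07. Condensin subunits, which compact chromosomes, had a median ratio of 2.52, with 5 of 6 higher in all 8 libraries. Mastl, the kinase that holds the phosphatase PP2A in check during mitosis, had a ratio of 3.15, and Diaph3, a formin of the cleavage furrow, 3.08.

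The engine of mitosis itself was sparse. Cdk1, the kinase that drives entry, was detected in 39.5% of mitotic cells and 3.96% of comparison cells, with a median ratio of 2.09. Ccnb1, which encodes its partner cyclin B1, was detected in 12.2% and 0.21%, and Ccnb2 in 25.5% and 1.64%. Plk1, the kinase of many mitotic steps, was detected in 15.8%, Aurka, the spindle pole kinase, in 10.3%, and Aurkb, the kinase of the chromosomal passenger complex, in 19.8%. Ccnb2 was at 0 in the mitotic cells of control 3 and CYR61 3, and Ccnb1, Aurka and Aurkb were at 0 in CYR61 3, whose mitotic cells held 92129 UMIs. Aurka was also at 0 in control 3 and control 4.

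Genes of DNA replication were also among those with the largest ratios. Rrm2, the ribonucleotide reductase subunit that makes DNA precursors, averaged 103 ± 42.3 CPM against 5.73 ± 6.13 CPM (SD, n = 8), with a median ratio of 3.59. Pclaf, a PCNA-bound factor, had a ratio of 3.32. Clspn, a mediator of the replication checkpoint, measured 44.2, 45.5, 205 and 14.7 CPM in control libraries 1 to 4. Its levels in CYR61 libraries 1 to 4 were 119, 117, 174 and 55.5 CPM, so control 3 and CYR61 3 were its highest libraries. Ccne2, which encodes cyclin E2 of S-phase entry, was highest in control 3 at 311 CPM, against 30.1 to 36.9 CPM in the other control libraries. The 12 mitotic cells of control 3 had the highest S-phase level, 6760 CPM, and a low Cenpf level, 11.7 CPM against 111 to 147 CPM in the other controls. In control 3, 1 cell gave 28.8% of the UMIs of these 12 cells, and Cenpf was detected in 8.33% of them. The 6 MCM helicase subunits had a median ratio of 1.55, with 5 higher in all 8 libraries.

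Genes that brake or start the cycle were present in both classes. Rbl1, which encodes the pocket protein p107 and is itself an E2F target, had a ratio of 1.74 and was higher in all 8 libraries. Mdm2, the ubiquitin ligase of p53, was also higher in 8, with a ratio of 0.67. Cdkn1a, the p53 target p21, averaged 591 ± 264 CPM in mitotic cells and 435 ± 192 CPM in comparison cells (SD, n = 8), higher in 7 libraries. Cdkn1b, the inhibitor p27, had a ratio of 0.27 and was higher in 8. Ccnd1, the cyclin D1 that M-CSF induces, ran from 53.0 CPM in CYR61 4 to 956 CPM in control 3, with ratios from -1.12 to 2.27. Myc and Ccnd2 were near the limit of these counts, with means of 9.97 ± 11.5 and 8.82 ± 8.60 CPM (SD, n = 8). Of 7 measured histone genes none was higher in all 8, and they had a median ratio of 0.31.

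Fewer genes were lower in mitotic cells. Fth1 and Ftl1, the heavy and light chains of ferritin, had median ratios of -0.95 and -0.69. Fth1 averaged 6883 ± 1833 CPM against 13206 ± 4884 CPM (SD, n = 8). Lgals3, which encodes galectin-3, and the lysozyme Lyz2 had ratios of -0.62 and -0.53, and the fatty acid carriers Fabp5 and Fabp4 -0.58 and -0.51. Egr2, a factor of the M-CSF response, had a ratio of -0.68. Ribosomal RNA reads were lower too: Rn18s averaged 13567 ± 4359 CPM against 31930 ± 14292 CPM (SD, n = 8). Mir6236 and Lars2 had ratios of -1.16 and -0.60. Depth, mitochondrial share and ribosomal RNA differed between the classes together with these genes, and their part in the ratios was not tested.

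The macrophage list lay near 0 per gene. Its median ratio was -0.08 over 29 genes, of which 10 were lower in all 8 libraries and 1 was higher in all 8. Its summed level was lower in each library, at 53049 to 65267 CPM against 68938 to 82280 CPM. Adgre1, the F4/80 antigen, averaged 528 ± 59.5 CPM in mitotic and 504 ± 103 CPM in comparison cells (SD, n = 8). Csf1r, the M-CSF receptor, averaged 422 ± 97.8 and 389 ± 70.9 CPM (SD, n = 8). Cd68, a lysosomal glycoprotein, averaged 920 ± 197 and 921 ± 273 CPM (SD, n = 8). For these 3 genes the groups of libraries overlapped and the ratio took both signs. The granule list was higher in mitotic cells in 4 libraries and lower in 4, from 340 CPM in control 3 to 2917 CPM in CYR61 4.

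**Figure D3:**
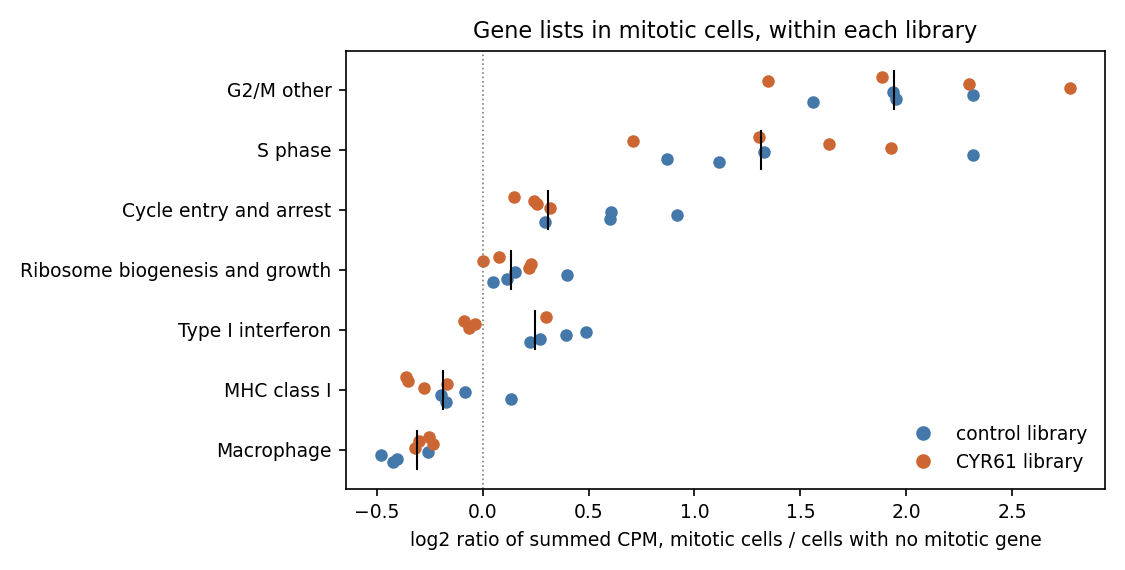
Log2 ratio of summed CPM in mitotic cells over cells with no mitotic gene, for 7 gene lists. Each point is a library, blue for control and orange for CYR61, and the black line is the median of 8. The 2 cell cycle lists lie above 0 and the macrophage list below 0 in all 8 libraries.

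The share of mitotic cells was compared between the groups to ask whether CYR61 altered how many macrophages were dividing. It was 4.99%, 30.7%, 8.05% and 7.24% in control libraries 1 to 4. In CYR61 libraries 1 to 4 it was 12.98%, 17.0%, 4.12% and 4.48%. Control 2 stood above every other library, with a 95% Wilson interval from 24.2% to 38.1%, and the groups overlapped. Such intervals, like all intervals and floors here, cover counting error only. Means were 12.8 ± 12.1% and 9.66 ± 6.40% (SD, n = 4 each), and their difference was smaller than the library spread (exact two-sided permutation p = 0.743, adjusted over 5 tests p = 0.914). The smallest p that 4 against 4 libraries can give is 0.0286.

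Detecting 3 genes depends on depth, so each cell was also thinned at random to 1000 UMIs, which every eligible cell had. Then 282 of the 698 cells still passed. The thinned shares were 1.66%, 18.1%, 1.34% and 4.07% in control libraries 1 to 4. They were 6.27%, 6.23%, 1.03% and 1.49% in CYR61 libraries 1 to 4. Means were 6.29 ± 7.95% and 3.76 ± 2.89% (SD, n = 4 each, exact two-sided permutation p = 0.771, adjusted p = 0.914). Control 2 was the highest library in cells under 10000 UMIs: its thinned share was 17.7% in cells of 1000 to 2000 UMIs, 22.5% from 2000 to 5000 and 21.1% from 5000 to 10000. In the other libraries these bins held 0% to 9.13%. In cells of 10000 UMIs or more control 2 had 10.7% (3 of 28 cells), next to 10.1% in CYR61 2 and 9.39% in CYR61 1.

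The groups also overlapped in a level that needs no threshold per cell. The 10 mitotic genes summed over all eligible cells to 660 ± 523 CPM in the controls and to 578 ± 427 CPM with CYR61 (SD, n = 4 each, exact two-sided permutation p = 0.800, adjusted p = 0.914). Without control 2 the share and this level were higher in CYR61 libraries, by 2.90 percentage points and by 179 CPM (exact two-sided permutation p = 0.457 for each). Without CYR61 3 or CYR61 4 the level was also higher with CYR61, by 65.8 and 12.6 CPM. With all copies of shared barcodes kept, control 2 had a share of 13.4% and the CYR61 libraries were higher by 1.185 points (exact permutation p = 0.8286). Within the earlier file date the mean shares were 17.9% and 15.01%, and within the later date 7.65% and 4.30%, for control and CYR61 with 2 libraries each. The 4 libraries with Xist had shares of 8.05% to 30.7% and the 4 with Y-linked RNA 4.12% to 7.24%. That split and the date were not tested against the shares.

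**Figure D4:**
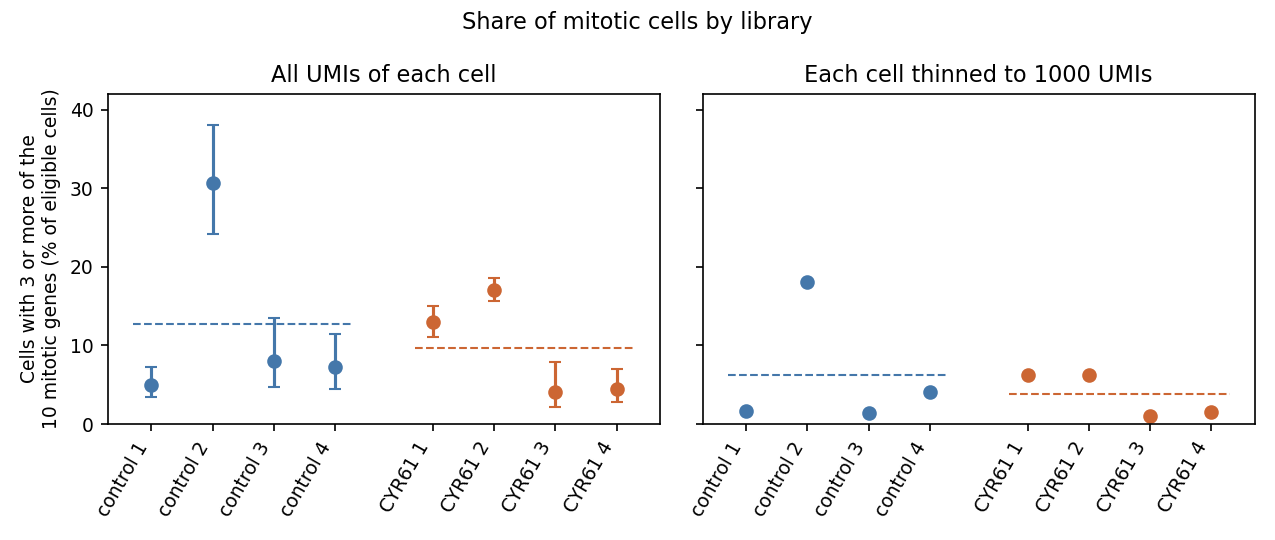
Share of eligible cells (%) with 3 or more of the 10 mitotic genes, by library, from all UMIs (left, bars are 95% Wilson intervals) and after thinning each cell to 1000 UMIs (right). Dashed lines are group means. Control 2 stands at 30.7% and 18.1%, above all other libraries, and the groups overlap.

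The level of the S-phase list within mitotic cells was also compared between the groups. Over all eligible cells this level rose with the number of mitotic genes detected, from 2855 CPM with 3 to 8357 CPM with 10. It therefore cannot give position in the cycle alone. In mitotic cells the list summed to 3221, 3918, 6760 and 3915 CPM in control libraries 1 to 4. The CYR61 libraries 1 to 4 gave 6052, 5374, 2345 and 3545 CPM. The lowest and the highest value were CYR61 3 and control 3, the libraries with fewest mitotic cells, and the means were 4454 ± 1572 and 4329 ± 1694 CPM (SD, n = 4 each, exact two-sided permutation p = 0.914, adjusted p = 0.914). The direction differed between the file dates, with 2 libraries a group in each. Within the earlier date the means were 3570 CPM in the controls and 5713 CPM with CYR61, and within the later date 5338 and 2945 CPM. That difference was not tested. The median depth of mitotic cells was 6640 ± 4974 and 9689 ± 8285 UMIs (SD, n = 4 each, exact two-sided permutation p = 0.600, adjusted p = 0.914).

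CYR61 raised interferon-stimulated genes in the mitotic cells. These genes encode antiviral proteins and are switched on by type I interferon. Counts were summed over the mitotic cells of each library and tested with edgeR's quasi-likelihood test, with Benjamini-Hochberg adjustment over all 7513 genes tested. CYR61 3 was left out for its 8 cells, so 4 control libraries stood against 3. With CYR61, 68 genes rose (0.905% of those tested) and 8 fell (0.106%). With CYR61 3 added, 63 of 6773 genes rose and 0 fell, and 403 had an unadjusted p under 0.05 (edgeR). Of a list of 46 interferon-stimulated genes, 40 were tested and 33 of them rose. None of the list fell, and its median log2 fold change was 2.67, against -0.01 over all genes tested. The median was also 2.67 with the 2 genes at 0 in the control libraries set at their lower bounds. Both bounds lie above that median, so this step could not move it. The groups did not overlap for 39 of the 40, as for 9.24% of all genes tested (4.50% with CYR61 higher and 4.74% with CYR61 lower).

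Ifit2 (chr19:34550694-34576419), which encodes an RNA-binding antiviral protein, measured 8.04, 25.8, 5.86 and 7.37 CPM in mitotic cells of control libraries 1 to 4. It measured 413, 313 and 1609 CPM in CYR61 libraries 1, 2 and 4, and 597 CPM in the untested CYR61 3. Every CYR61 library was above every control, and the fold change was 5.73 ± 0.77 on the log2 scale (SE, edgeR adjusted p = 0.00957). Isg15 (chr4:156199424-156200818), the ubiquitin-like modifier, measured 6.03, 12.1, 35.2 and 36.9 CPM in control libraries 1 to 4. It measured 202, 204 and 333 CPM in CYR61 libraries 1, 2 and 4 and 402 CPM in CYR61 3, again with no overlap. Its log2 fold change was 3.93 ± 0.45 (SE, edgeR adjusted p = 0.000565). The control values rest on 3 to 8 UMIs of Isg15 per library.

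Other antiviral genes were at or near silence in control mitotic cells. Ifi213 and Ifi206, of the family of nuclear DNA sensors, and Ifi44 had 0 UMIs in the 1463093 UMIs of the control mitotic cells. With a floor of 3 counts over the group they were at least 21.0-fold, 15.7-fold and 17.5-fold higher with CYR61. Ms4a4c, a membrane protein of monocytes, had 1 UMI in the control libraries, and the pooled ratio was 50.7 with a counting interval from 8.99 to 2013. Ifit3, Ifit1, Mx1, Phf11d and Siglec1, the sialoadhesin of macrophages, had log2 fold changes of 5.18, 5.09, 4.94, 4.04 and 3.99. In CYR61 3 Ifit1 was at 0 CPM, and the other 4 lay between 86.8 and 282 CPM.

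Further genes that rose had UMIs in the mitotic cells of all 4 control libraries. Oasl2, of the oligoadenylate synthetase family, rose from 29.7 ± 11.8 CPM (SD, n = 4) to 245 ± 72.0 CPM (SD, n = 3). Ifi204, another nuclear DNA sensor, rose from 124 ± 28.4 to 576 ± 172 CPM. Fcgr1, the high-affinity IgG receptor, measured 147, 135, 99.7 and 59.0 CPM in control libraries 1 to 4. It measured 443, 394 and 547 CPM in CYR61 libraries 1, 2 and 4 and 499 CPM in CYR61 3. Its log2 fold change was 2.03 ± 0.25 (SE, edgeR adjusted p = 0.000623). C1qa, a chain of complement C1q, rose from 24.5 ± 12.9 to 85.5 ± 7.80 CPM (edgeR adjusted p = 0.0314). The C1qa call was lost without control 1, 2 or 3 (edgeR adjusted p = 0.0570, 0.147 and 0.0653) and without CYR61 1 or 2 (edgeR adjusted p = 0.234 and 0.136). Fcgr1 and C1qa were the only 2 of 29 macrophage markers called.

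The one protein-coding gene that fell and met the rule for named genes was Lyz1, a lysozyme that is a close copy of Lyz2. It measured 175, 158, 129 and 236 CPM in control libraries 1 to 4 and 42.7, 28.8 and 88.3 CPM in CYR61 libraries 1, 2 and 4, a log2 fold change of -1.78 ± 0.37 (SE, edgeR adjusted p = 0.0269). CYR61 3, outside the fit, measured 434 CPM and was the highest library of all. The call was made under 9 of 19 alternatives. It was lost without control 1, 2 or 4 (edgeR adjusted p = 0.113, 0.107 and 0.0904) and without CYR61 1 or 2 (edgeR adjusted p = 0.178 and 0.249). With all 8 libraries the log2 fold change was -0.71 (edgeR adjusted p = 0.9995). Reads of such copies can be assigned to either. The other 7 genes that fell were the gene models Gm9794, Gm13341, Gm10275, Gm5881 and Gm7204 and the pseudogenes Rplp2-ps1 and Rpl10a-ps1, named after their values were seen. Such copies share reads with their parent genes, so their counts are uncertain.

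**Figure D5:**
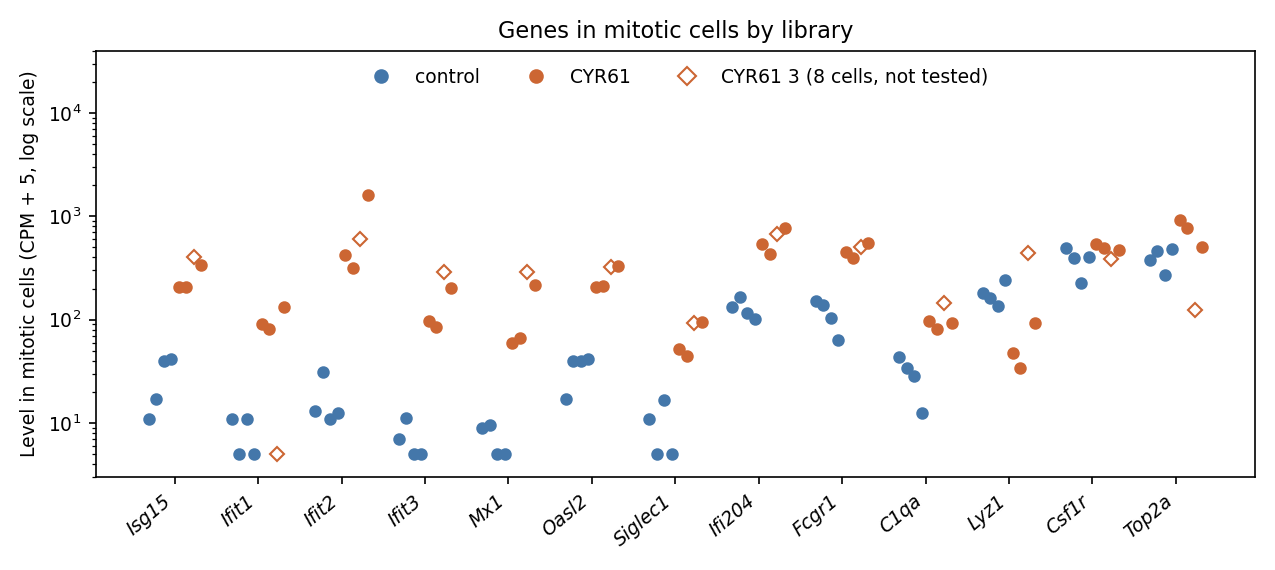
Level in mitotic cells (CPM + 5, log scale) of 13 genes in each library, blue for control and orange for CYR61. Open diamonds mark CYR61 3, whose 8 mitotic cells were not in the test. The first 10 genes lie higher in all 3 tested CYR61 libraries than in any control, Lyz1 lies lower, Csf1r was not called, and Top2a, which helped to choose the cells, is shown with no test.

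The number of calls moved with the cells and libraries used, while the summed level of the interferon list did not overlap between the groups in cells with 3 or 4, 5 to 7 or 8 to 10 mitotic genes. Summed over cells with 3 or 4 mitotic genes, the interferon list measured 1516 to 1966 CPM in the 4 control libraries. It measured 7014 to 15486 CPM in the 4 CYR61 libraries. In cells with 8 to 10 mitotic genes it measured 1495 to 2435 CPM in the control libraries and 6015 to 9766 CPM in the 3 CYR61 libraries that had such cells. Without control 2, 34 genes rose and none fell, 18 of them in the interferon list. Without control 1, 40 rose and 6 fell, 23 of them interferon genes. With all copies of shared barcodes kept, edgeR called none of 7505 genes, while 376 had an unadjusted p under 0.05 and all 40 tested interferon genes were higher with CYR61, at a median of 2.003. With cells of 3 or more granule or progenitor genes left out, the libraries fell to between 2 and 25 cells apart from CYR61 1 and CYR61 2, only 461 genes could be tested, and 1 of 4 tested interferon genes was called. With cells under 20000 UMIs alone, an alternative chosen after the data were seen, 25 of 3163 genes rose and 2 fell, 18 of the 25 in the interferon list. Without CYR61 4, 76 rose and 60 fell.

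The 10 mitotic genes chose these cells, so they are not tested between the groups here. In the same fit no other gene of the mitotic program on the lists was called. Of the other G2 and M list, 0 of 71 tested genes were called, 68 were higher with CYR61 and the median log2 fold change was 0.50. Of the S-phase list 0 of 67 were called, with 55 higher and a median of 0.39. Of 26 genes of cycle entry and arrest 0 were called, with Cdkn1a at -0.24 ± 0.37 and Ccnd1 at -0.51 ± 0.86 (SE, log2). Over all 7513 genes tested, 0.905% were called higher and 0.106% lower, and 3685 were higher with CYR61. At those shares, 0 calls in lists of this size are near the share over all genes. On simulated counts this test recovered 16.4% of 2-fold changes. Some alternatives called a few genes of these lists higher, named after their values were seen. Esco2, which sets sister chromatid cohesion, and Ncapg2, a condensin subunit, were 2 of 83 with DESeq2 and 2 of 71 with a term for the Xist and Y split. Both, with Kif23, were 3 of 72 with at least 4 mitotic genes asked of a cell. With no gene filter 7 of 83 other G2 and M genes and 1 of 80 S-phase genes, Rrm1, were called. Without CYR61 4 the call was Esco2, and without control 3 the calls were Dlgap5 and, in the S-phase list, Ccne2. A block for the replicate number called 4 of 67 S-phase genes and 4 of 71 other G2 and M genes higher. The direction turned with cells of 3 or more granule or progenitor genes left out. There only 3 other G2 and M genes could be tested, 0 of them were higher with CYR61, and their median was -0.58.

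The series names SYK, NF-kB and PDGF, and genes of these pathways were followed by purpose. Syk had a log2 fold change of 0.25 ± 0.24, and the NF-kB subunits Nfkb1 and Rela 0.91 ± 0.41 and 0.02 ± 0.34 (SE). Pdgfa, a growth factor of fibroblasts, measured 64.3, 59.2, 29.3 and 51.6 CPM in control libraries 1 to 4. It measured 21.7, 20.1 and 17.7 CPM in CYR61 libraries 1, 2 and 4 and 10.9 CPM in CYR61 3. All CYR61 libraries were below all controls, at a log2 fold change of -1.34 ± 0.37 that missed the threshold (SE, edgeR adjusted p = 0.157). Pdgfb had -0.62 ± 0.46. None of these 5 genes was called, and Ccn1 itself had too few counts to test. MHC class I genes were all higher with CYR61, with 0 of 11 called and a median of 0.72. Of all 7513 genes tested, 3685 were higher.

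The same test in the comparison cells used all 8 libraries. There 73 of 7527 genes rose (0.970%) and 1 fell (0.0133%), Proser1, named after its value was seen. Of the interferon list 35 of 40 rose, at a median log2 fold change of 2.96, and the groups did not overlap for 38, as for 5.27% of all genes tested (4.13% with CYR61 higher and 1.14% lower). Ifit2 had 6.78 ± 0.52, Isg15 3.76 ± 0.36 and Fcgr1 2.37 ± 0.32 there (SE, log2). Ccl5, a chemokine, and Saa3, an acute-phase protein, rose in these cells to 41.9 ± 15.95 and 33.9 ± 9.09 CPM (SD, n = 4), from 1 UMI and 0 UMIs in the control libraries. Both sets of fits share the libraries, so their calls are not independent.

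Whether mitotic cells answered CYR61 differently was tested as an interaction, with library as a block and both classes of all 8 libraries, the 8 mitotic cells of CYR61 3 included. Of 7564 genes, 2 differed (0.0264% higher, 0.00% lower), and 308 had an unadjusted p under 0.05. Both were mitochondrial ribosomal RNAs, which the rule for named genes leaves out and which are named after their values were seen. In comparison cells mt-Rnr2 measured 51773 ± 20140 CPM in the controls and 34952 ± 13798 CPM with CYR61 (SD, n = 4 each). In mitotic cells it measured 17125 ± 5021 CPM (SD, n = 4) and 24715 ± 7101 CPM (SD, n = 3 without CYR61 3). The log2 difference of effects was 0.94 ± 0.13 for mt-Rnr2 and 0.94 ± 0.14 for mt-Rnr1 (SE, edgeR adjusted p = 3.61e-05 and 8.57e-05). Neither was called within a class. With all copies of shared barcodes kept the differences were 0.33 and 0.35 (edgeR adjusted p = 1 for each), and neither was called with comparison cells matched on UMIs or with cells under 20000 UMIs, where the test called 0 genes in all.

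None of 40 tested interferon genes passed the interaction test, where 14 had a larger effect in mitotic cells and the median difference was -0.22. With all copies of shared barcodes kept this turned: all 44 tested had a larger effect in mitotic cells, at a median of 1.01, and 2 were called, Mx1 and Oasl2, named after their values were seen. In the reported fit the log2 difference of effects was -0.50 ± 1.08 for Ifit2, 0.12 ± 0.50 for Isg15, 0.34 ± 0.22 for Ifi204 and -0.19 ± 0.27 for Fcgr1 (log2, SE, edgeR adjusted p = 1 for each). Kif15 had the largest log2 difference among the 5 genes with the smallest p, 2.08 ± 0.54, and missed the threshold (SE, edgeR adjusted p = 0.769). On simulated counts the interaction test recovered 1.67% of 2-fold, 27.7% of 4-fold and 83.9% of 8-fold changes, and the test in mitotic cells 16.4%, 86.0% and 100%. These are shares of the changed genes that passed the gene filter. The simulation assumed the same spread for every gene, not fitted to these libraries, and no library effect shared by both classes. In that setting a 4-fold difference between the classes was missed more often than called. How often it would be missed at the spread of these libraries was not tested.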

How the data were processed

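HIVE single-cell RNA libraries of mouse bone marrow macrophages, 4 control and 4 CYR61, were read from the authors' deposited tables of UMI counts per gene and barcode, whole numbers with no normalization. Each table held 5000 barcodes, and totals ran from 1379637 to 16318946 UMIs. The genome build was mm10, per the submitters' processing notes, and neither aligner nor counter is given in the sources used here. Barcodes with at least 300 genes, at most 20% mitochondrial UMIs and at least 1000 UMIs were kept, each in the table of its date stamp with most of its UMIs. The mitotic genes, the gene lists and the comparisons were chosen with earlier results of these data known.

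Counts were summed per library and class. Within a class, libraries with under 10 cells were left out of the reported test. Alternatives that chose other cells kept the libraries of the reported test, also where a library then held under 10 cells. With cells under 20000 UMIs, control 3 and CYR61 4 held 8 mitotic cells each and stayed in the fit. The CYR61 effect was tested with edgeR 4.0.16 in R 4.3.3 (TMM, filterByExpr, robust quasi-likelihood, Benjamini-Hochberg adjustment, threshold 0.05). The interaction model had library as a block and all 8 libraries. DESeq2 1.42.0 was an alternative. Library measures were compared with exact permutation tests over 70 assignments, and Wilson intervals came from scipy 1.17.1. Mitotic and comparison cells were described by log2 ratios of CPM with 5 CPM added and were not tested against each other, since the same counts chose the cells. Thinning drew 1000 UMIs per cell with a fixed seed. Genes were named by a rule: the mitotic genes, the largest ratios of 1 sign in all 8 libraries at 50 CPM or more, the largest called changes with groups that do not overlap, the smallest p of the interaction, up to 4 per list, and genes picked by purpose. The edgeR scripts were tested on simulated data.

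Scrublet's own threshold, in scanpy 1.11.5, marked 1091 of 1094 kept cells in control 1 and 19 of 11754 in the others, so doublets were not removed. The top 5% of scores in each library held 55 mitotic cells (7.88%), 80 comparison cells (3.37%) and 244 of all eligible cells (4.68%). With those cells left out, 29 of 40 tested interferon genes rose with CYR61 in mitotic cells. Same-numbered control and CYR61 libraries did not all deviate together (correlations of -0.13, 0.22, -0.06 and 0.13 in mitotic cells), so the numbers were not treated as pairs. Libraries did deviate together along the Xist and Y split. In both classes, correlations were positive between libraries of the same side, as in mitotic cells of control 2 and CYR61 1 (0.23). They were negative across the split, as for control 4 and CYR61 1 (-0.20). The reported fits have no term for this split, and the fit with it is an alternative. Promoters came from RefSeq on GRCm38.p6, and gene positions from GENCODE vM21 on mm10.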

Additional observations from a re-analysis of the deposited data

Results flagged for a closer look

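Control 2 stood apart in 3 measures of dividing cells. Its share of mitotic cells was 30.7%, its share after thinning was 18.1%, and its summed level of the 10 mitotic genes was 1443 CPM over all eligible cells, each farther from the other control libraries than Dixon's 95% limit for 4 samples allows. It is also the library that lost most cells to the rule on shared barcodes, and with all copies kept its share was 13.4%. The part of that rule in the values was not tested.

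Single genes in mitotic cells had 1 library apart from the rest of its group. Ifit2 was highest of the controls in control 2, at 25.8 CPM from 17 UMIs. Ms4a4c was seen among controls only in control 3, at 5.86 CPM from 1 UMI. Oasl2 was lowest of the controls in control 1, at 12.1 CPM from 6 UMIs. Lyz1 was highest of the CYR61 libraries in CYR61 3, at 434 CPM from 40 UMIs. Of 50 groups of 4 libraries looked at, 7 had such a value, and chance gives about 1 in 20.

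The CYR61 effect differed between mitotic and comparison cells for mt-Rnr2 and mt-Rnr1, by 0.94 on the log2 scale for each in edgeR's interaction test. In the separate fits of each class, which have no block and for mitotic cells leave out CYR61 3, the effects were 0.58 and 0.51 in mitotic cells and -0.68 and -0.70 in comparison cells, so their gap need not equal the interaction. Neither was called within a class, and with all copies of shared barcodes kept neither passed the interaction test.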

How the results depend on the processing

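The count of genes called for CYR61 in mitotic cells, 76 in the reported fit, was 154 with DESeq2, 145 with a term for the Xist and Y split, 123 with at least 2 mitotic genes per cell, 244 with no gene filter, 27 with cells under 20000 UMIs, 1 without granule or progenitor cells and 0 with all copies of shared barcodes. It was 148 with the replicate block (108 higher and 40 lower), which called 4 of 67 S-phase genes (Ccne2, Cdc6, Clspn and Hells) and 4 of 71 other G2 and M genes (Ckap2l, Dlgap5, Esco2 and Ncapg2) higher. With all 8 libraries it was 63, none of them lower. Leaving out 1 library gave 34 (control 2) to 136 (CYR61 4), and 46 without control 1. In comparison cells the count of 74 became 120 with DESeq2, 180 with the Xist and Y split, 156 with no filter, 41 with cells matched on UMIs and 0 with all copies (111 at an unadjusted p under 0.05), and 46 (control 1) to 81 leaving out 1 library. The interaction called 1 gene with at least 4 mitotic genes, 5 with no filter, 1 without granule or progenitor cells, 0 with matched cells (274 at an unadjusted p under 0.05) and 0 under 20000 UMIs (255), and 2 to 5 leaving out 1 library, with 5 without CYR61 3 and 4 without control 1. In edgeR's fits the causes were not tested, and the smaller sets also had fewer genes tested.

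CYR61 minus control reversed with all copies for the share (1.185 points) and the mitotic gene level (57.1 CPM), and under 20000 UMIs for that level (45.9 CPM). The S-phase level reversed with at least 2 mitotic genes (14.985 CPM) and under 20000 UMIs (569 CPM). Leaving out 1 library gave -5.68 to 2.90 points for the share, -4.18 to 1.40 for the thinned share, -220 to 179 CPM for the mitotic gene level, -699 to 644 CPM for the S-phase level and -946 to 5426 UMIs for the median depth. None of these differences passed a test in any setting run. The median ratio of the other G2 and M list was 3.18 with 1 CPM added and 1.43 with 20 CPM. The S-phase, macrophage and interferon lists kept their direction under all 12 alternatives. With the replicate block as a paired permutation the p-values were 0.625, 0.625, 0.750 and 0.875 for the share, the thinned share, the mitotic gene level and the S-phase level. The alternative without cells marked by Scrublet was not run, since its threshold did not work. Cells under 20000 UMIs, all 8 libraries and the top 5% of Scrublet scores were alternatives chosen after seeing the data. Libraries with 8 to 24 mitotic cells limit the precision of every fold change in them.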
